A study of Mus musculus with 35 samples.

Results

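The genes of glutathione conjugation and antioxidant defence were followed in the small intestine of PPARα-null and wild-type mice, 6 hours after an oral dose of a dietary fat or of the synthetic agonist WY14643. They were chosen by gene symbol alone. The members are the glutathione S-transferases (Gst followed by a class letter and a number, and Mgst), the glutathione peroxidases (Gpx), the peroxiredoxins (Prdx), the thioredoxin reductases (Txnrd) and the superoxide dismutases (Sod), with Gsr, Gss, Gclc, Gclm, Nqo1, Srxn1, Txn1, Nfe2l2, Keap1 and Ephx1. Of 45037 probesets, 89 carried a single symbol of this kind, and they stood for 50 of 18193 genes. A probeset was counted as expressed when its mean in at least 1 of the 8 groups was above a log2 value of 5, which is a level of 32 on the linear scale. By that rule 42 of the 50 genes were expressed, out of 8626 expressed genes on the array.

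Glutathione is made from glutamate, cysteine and glycine by glutamate-cysteine ligase, with its catalytic subunit Gclc and its modifier subunit Gclm, and by glutathione synthetase, Gss. Glutathione S-transferases attach it to electrophilic compounds, among them products of lipid peroxidation, while glutathione peroxidases use it to reduce peroxides and Gsr, glutathione reductase, recycles the oxidised form. Many of these genes are targets of NRF2, the transcription factor encoded by Nfe2l2, which KEAP1 holds in check until electrophiles modify it, and which binds the antioxidant response element. PPARα is a nuclear receptor that fatty acids activate and that directs their oxidation. The enterocyte meets dietary lipids and their oxidation products first.

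The groups were PPARα-null mice and wild-type mice given WY14643 (4 and 4 arrays), EPA (5 and 5), DHA (4 and 5) or OA (4 and 4). All mice were male and 4 months old, ate an AIN76A diet with olive oil in place of corn oil for 2 weeks, and were fasted for 4 hours. The fats were 400 µl of a synthetic triacylglycerol carrying a single fatty acid: triolein for OA (oleic acid, 18 carbons and 1 double bond), trieicosapentaenoin for EPA (20 carbons and 5 double bonds) and tridocosahexaenoin for DHA (22 carbons and 6 double bonds). WY14643 was given as 400 µl of a 0.1% suspension in 0.5% carboxymethyl cellulose, so its comparison with OA sets a drug in a fat-free vehicle beside a fat load. The null mice were of the substrain 129S4/SvJae and the wild-type mice of 129S1/SvImJ, so genotype and substrain cannot be told apart. The whole length of the small intestine was flushed and freed of fat and pancreas before total RNA was taken. As the RNA came from a whole organ, fewer cells of a type and less RNA per cell cannot be told apart.

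The 35 arrays had medians of 2.83 to 2.88 on the log2 scale, with 31.62% to 32.38% of probesets above the level. Pairs of arrays correlated at 0.9221 to 0.9913 and none were identical. Enterocyte markers were high: the averages over all arrays were 12.99 for Alpi (alkaline phosphatase), 13.03 for Vil1 (villin) and 14.01 for Fabp2 (fatty acid binding protein). Pancreatic acinar transcripts were also present, at levels that varied widely between arrays. Cela2a, 1 of them, averaged 11.8 and ran from 3.52 to 14.08. On 3 arrays the probeset of Cyp4a10, a PPARα target, went against the label. It stood at 9.91 on PPARα-null EPA replicate 5 and 10.61 on PPARα-null OA replicate 1, against 1.36 to 2.50 on the other 15 PPARα-null arrays. It stood at 1.81 on wild-type EPA replicate 5, against 8.15 to 12.75 on the other 17 wild-type arrays. Acaa1b, a further PPARα target, stood at 11.49 and 12.06 on the same PPARα-null arrays, against 7.56 to 9.73 on the other PPARα-null arrays. On wild-type EPA replicate 5 Acaa1b stood at 7.81, against 10.25 to 13.74 on the other wild-type arrays. Slc25a20, also a PPARα target, went against the label on all 3 arrays. These arrays stayed in the groups their labels give, and for the comparisons that use them the called genes are given with and without these 3. Single values of uncalled genes are from all arrays unless stated.

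Levels on this array are log2 values of a probeset, which cannot be compared between genes. Averages over all arrays were 13.37 for Txn1 (thioredoxin), 13.16 for Gstp1 (the pi-class transferase) and 12.21 for Mgst1 (microsomal transferase). Of the 42 expressed genes 39 were above the level in all 8 groups. Gstm4 was the case nearest to background, with a mean under 5 in all 4 PPARα-null groups and above it only in wild-type mice given WY14643 or DHA. The unexpressed members were Gstp3, Gstt4, Gsto2, Gpx5, Gpx6, Gpx7, Txnrd3 and Sod3. In all, 30 of the 42 genes passed the test in at least 1 of the 12 pairwise comparisons below. The share of all genes that did so was not counted, so this is not read as a trait of the members. WY14643 against OA alone called 30.0% of all genes in wild-type mice and 27.2% in PPARα-null mice. The 12 members that passed in none were Gstm2, Gsto1, Mgst3, Gpx3, Gpx8, Prdx2, Prdx3, Txn1, Txnrd2, Gsr, Keap1 and Nfe2l2. This holds for the probeset read: further probesets of Gsto1 (0.28 for WY14643 against OA in wild-type mice, adjusted p = 0.00134), Gsr and Nfe2l2 did pass in 1 comparison each.

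The promoters of 5 members are shown because they differ in 1 feature, the core of the antioxidant response element. The choice does not stand for the members, of which a smaller share held the core. The core, TGACNNNGC on either strand, was searched in the RefSeq windows (build GRCm38.p6) that run from 250 bases before the start of a gene to 50 bases after it. It is in capitals where present. The windows are written along the gene, and on the opposite strand the core reads GCNNNGTCA.
Gsta2, chr9:78347096-78347395, minus strand: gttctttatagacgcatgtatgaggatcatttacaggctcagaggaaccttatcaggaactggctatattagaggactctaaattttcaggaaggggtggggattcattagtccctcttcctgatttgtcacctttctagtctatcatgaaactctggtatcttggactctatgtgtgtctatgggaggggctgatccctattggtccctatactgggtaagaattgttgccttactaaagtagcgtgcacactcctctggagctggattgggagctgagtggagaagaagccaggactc
Gsta3, chr1:21240335-21240634, plus strand: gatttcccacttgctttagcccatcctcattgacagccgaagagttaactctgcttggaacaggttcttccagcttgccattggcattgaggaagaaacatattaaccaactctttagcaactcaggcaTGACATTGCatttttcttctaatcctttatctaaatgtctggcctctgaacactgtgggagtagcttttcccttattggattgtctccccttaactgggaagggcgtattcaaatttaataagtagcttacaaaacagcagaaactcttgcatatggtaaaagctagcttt
Mgst1, chr6:138140277-138140576, plus strand: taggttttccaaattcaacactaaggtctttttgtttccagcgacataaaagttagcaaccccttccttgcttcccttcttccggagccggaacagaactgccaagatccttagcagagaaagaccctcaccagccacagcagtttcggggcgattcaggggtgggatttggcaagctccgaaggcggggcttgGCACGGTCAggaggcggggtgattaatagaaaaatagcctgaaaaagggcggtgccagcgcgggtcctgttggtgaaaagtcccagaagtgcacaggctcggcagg
Srxn1, chr2:152105274-152105573, plus strand: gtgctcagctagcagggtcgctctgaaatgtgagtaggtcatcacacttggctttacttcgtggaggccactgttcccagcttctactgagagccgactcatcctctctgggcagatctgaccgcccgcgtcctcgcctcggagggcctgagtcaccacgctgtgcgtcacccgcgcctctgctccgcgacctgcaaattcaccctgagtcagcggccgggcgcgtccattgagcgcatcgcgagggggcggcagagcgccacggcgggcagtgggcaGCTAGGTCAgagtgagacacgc
Gclm, chr3:122245307-122245606, plus strand: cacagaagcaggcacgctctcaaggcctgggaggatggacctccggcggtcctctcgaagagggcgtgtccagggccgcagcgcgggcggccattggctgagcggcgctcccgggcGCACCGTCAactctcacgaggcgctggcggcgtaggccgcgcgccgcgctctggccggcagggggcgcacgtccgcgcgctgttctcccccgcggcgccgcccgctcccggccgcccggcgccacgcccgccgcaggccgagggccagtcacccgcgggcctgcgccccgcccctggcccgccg

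The core began at base 130 of the window in Gsta3, at base 195 in Mgst1, at base 279 in Srxn1 and at base 117 in Gclm, and it was not in the window of Gsta2. A second Mgst1 window did not hold it. Among all 32851 windows 12.4% held the core, and among the 51 windows of members 9 did (17.6%). Those 9 belonged to Gsta3, Gstm5, Gstm7, Mgst1, Srxn1, Txnrd1, Sod1, Gclm and Nfe2l2, out of 38 member genes with a window. The windows of Nqo1, Ephx1, Gstm3 and Gstk1, which were called between genotypes after DHA, did not hold it. Gsta4, Gstt2, Gclc and Gsr had no window in the table and are only named. A direct repeat of AGGTCA with 1 base between, the form that PPARα binds, was searched with up to 2 mismatches. It was in 3.86% of all windows and in 2 of the 51 member windows, those of Prdx3 and Gss. These matches describe letters in a short window and say nothing of binding.

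The genotype comparison asks which members differ between PPARα-null and wild-type mice after each agonist. Loss of PPARα, the substrain and a difference already present without treatment cannot be told apart in it. After DHA, 13 of the 42 genes differed between PPARα-null and wild-type mice, and all 13 were lower in the null mice. Of all expressed genes 6.54% passed the same test. The median difference over the 42 members was −0.15 on the log2 scale, against 0.01 over all genes. The lower genes were the 3 alpha transferases, 3 of 7 mu transferases, Gstk1, 2 of 3 microsomal transferases, Srxn1, Sod1, and both quinone and epoxide enzymes, Nqo1 and Ephx1. None of the 5 glutathione peroxidases, 3 peroxiredoxins, 3 theta transferases, 4 genes of glutathione synthesis and recycling or 2 regulators was called.

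Gsta2, an alpha-class transferase that conjugates electrophiles and reduces lipid hydroperoxides, showed the clearest gap. Its log2 values were 6.32, 6.51, 6.37 and 6.19 in PPARα-null mice given DHA, against 7.89, 7.70, 7.99, 7.23 and 8.0 in wild-type mice given DHA. Every null array lay below every wild-type array. The averages were 6.35 ± 0.13 and 7.76 ± 0.32 (SD, n = 4 and 5), a difference of −1.41 (SE 0.21), or 2.66-fold lower in null mice (adjusted p = 0.000366, limma with Benjamini-Hochberg adjustment, as for all adjusted p-values here). Gsta3, another alpha-class enzyme, had 5.17, 5.06, 6.06 and 5.89 in null mice, against 6.40, 6.99, 5.99, 6.31 and 6.24 in wild-type mice. The groups overlapped at a single pair of arrays, and Gsta3 was 1.79-fold lower in null mice (adjusted p = 0.0315). Gsta4, which conjugates the peroxidation product hydroxynonenal, averaged 11.63 ± 0.28 in null mice and 12.17 ± 0.20 in wild-type mice (adjusted p = 0.00598). Its groups also overlapped.

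The 7 mu-class genes lie next to each other on chromosome 3, and their coding sequences are close, so a probeset may read more than 1 of them. Gstm3 had 9.72, 9.94, 9.84 and 9.73 in PPARα-null mice given DHA, against 11.20, 11.33, 10.87, 10.17 and 10.89 in wild-type mice given DHA. The groups did not overlap, and Gstm3 was 2.12-fold lower in null mice (difference −1.08, SE 0.26, adjusted p = 0.00854). Gstm1 had 8.84, 8.69, 8.69 and 8.83 in null mice, against 10.13, 10.16, 9.34, 8.56 and 9.85 in wild-type mice. Here the spread among wild-type mice was wide and its replicate 4 lay below all null arrays (difference −0.85, SE 0.25, adjusted p = 0.0373). Gstm4 had 4.35, 4.46, 4.48 and 3.81 in null mice, against 5.40, 5.37, 4.95, 4.44 and 5.47 in wild-type mice (difference −0.85, SE 0.22). It passed the filter on level only through wild-type mice given DHA or WY14643, so its tests are not independent of that filter, and without it the count after DHA is 12. Wild-type DHA replicate 4 was again the lowest of its group, as it was for Gsta2, Gstm3 and Nqo1.

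Nqo1 (NAD(P)H quinone reductase) had 7.12, 7.12, 6.95 and 6.84 in PPARα-null mice given DHA, against 8.0, 7.80, 7.70, 7.28 and 7.98 in wild-type mice given DHA. The groups did not overlap, and Nqo1 was 1.67-fold lower in null mice (difference −0.74, SE 0.15, adjusted p = 0.00241). Ephx1 (microsomal epoxide hydrolase) had 8.07, 8.20, 8.40 and 7.83 in null mice, against 9.05, 9.50, 8.83, 8.84 and 8.91 in wild-type mice. It too stood apart on every array, and was 1.86-fold lower in null mice (difference −0.90, SE 0.21, adjusted p = 0.00717). The smaller differences were in Gstk1, the mitochondrial and peroxisomal kappa transferase (1.47-fold lower, adjusted p = 0.00452), Srxn1, the sulfiredoxin that repairs overoxidised peroxiredoxin (1.41-fold, adjusted p = 0.00758), and Sod1, the cytosolic superoxide dismutase (1.34-fold, adjusted p = 0.024). Mgst1 (1.23-fold, adjusted p = 0.0158) and Mgst2 (1.19-fold, adjusted p = 0.0485) differed least, and their groups did not overlap. The Mgst2 call was lost when any of 22 arrays was left out and under 6 of 8 other settings. In total 7 of the 13 called genes had groups that did not overlap, as did 62.8% of all called genes. Gclc, read in the same mice, averaged 10.83 ± 0.64 in null mice and 11.36 ± 0.29 in wild-type mice and was not called (adjusted p = 0.161).

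**Figure D1:**
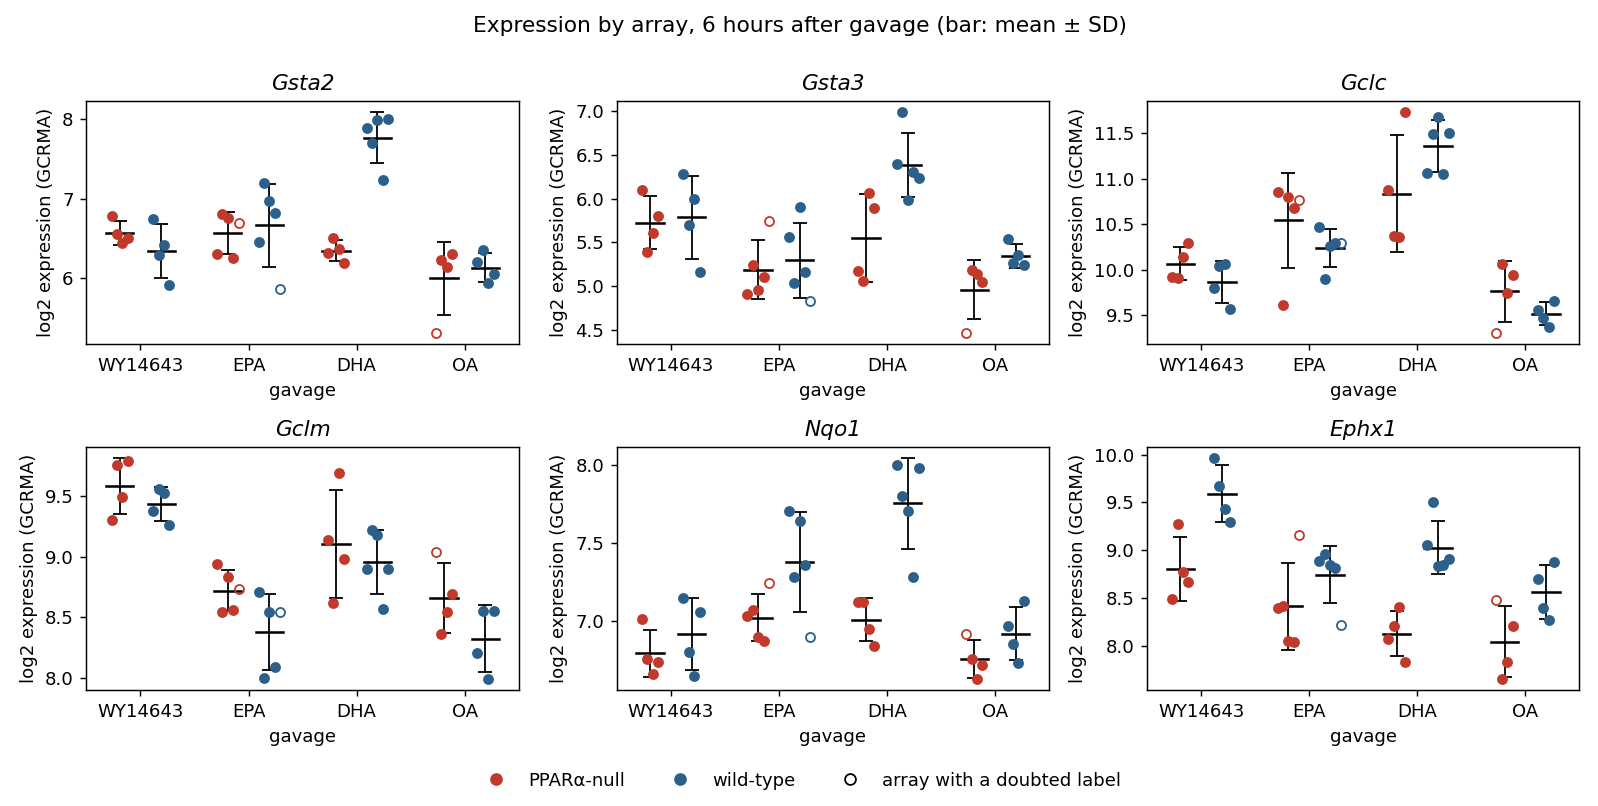
Log2 value of 6 genes (vertical axis) on every array, in the 8 groups (horizontal axis). Points are arrays and horizontal bars are group means. In wild-type mice given DHA all 5 arrays of Gsta2 lie between 7.23 and 8.0, and all 4 arrays of PPARα-null mice given DHA lie between 6.19 and 6.51.

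The differences in Gstk1, Gstm3, Ephx1, Nqo1 and Gsta2 after DHA stayed past the threshold with each of the 35 arrays left out in turn. The count fell to 8 without wild-type DHA replicate 1, PPARα-null DHA replicate 1 or PPARα-null DHA replicate 3. Fitted on the DHA arrays alone, 7 of the 13 genes remained: these 5 with Mgst1 and Gsta4. Between these groups 3 of 7 enterocyte markers were called, 2 higher and 1 lower in null mice, where 6.54% of all genes were. The averaged enterocyte list ran from 12.34 to 12.71 on null arrays and from 12.22 to 12.58 on wild-type arrays. Pancreatic acinar transcripts averaged 10.42 to 12.35 on null arrays and 9.24 to 13.60 on wild-type arrays. Their part in these differences was not tested.

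After WY14643 the genotypes differed in 6 of the 42 genes, 1 higher and 5 lower in PPARα-null mice, where 6.69% of all expressed genes were called. The median difference was 0 over the members and 0.06 over all genes. All 6 had groups that did not overlap, as did 92.4% of all called genes. Mgst1 had 12.14, 12, 12.05 and 12 in null mice given WY14643, against 12.64, 12.64, 12.53 and 12.40 in wild-type mice given WY14643. No null array reached the wild-type range (difference −0.50, SE 0.08, adjusted p = 3.25e-05). Sod1 averaged 11.42 ± 0.18 in null mice and 12.13 ± 0.04 in wild-type mice (SD, n = 4 each, adjusted p = 0.000121). Ephx1 had 8.49, 9.27, 8.77 and 8.67 in null mice, against 9.97, 9.67, 9.43 and 9.29 in wild-type mice (difference −0.79, adjusted p = 0.0209). Its groups were parted by a narrow margin.

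Gstm4 had 4.71, 4.35, 4.54 and 4.50 in PPARα-null mice given WY14643, against 5.97, 5.38, 5.49 and 5.15 in wild-type mice given WY14643 (difference −0.98, SE 0.24). The null values lay under the level counted as expressed, and without Gstm4, admitted by the wild-type values alone, the count after WY14643 is 5. Gstt2, a theta-class transferase, averaged 9.12 ± 0.07 in null mice and 9.43 ± 0.07 in wild-type mice (adjusted p = 0.0205). Gstm5 was the exception in direction, at 9.05 ± 0.02 in null mice and 8.67 ± 0.15 in wild-type mice (adjusted p = 0.0275). Mgst1 and Sod1 were called with each array left out in turn. The count fell to 2 without wild-type WY14643 replicate 1, and to 3 without wild-type WY14643 replicate 2 or PPARα-null WY14643 replicate 3. Gstm4 aside, Mgst1, Sod1 and Ephx1 were called after both DHA and WY14643, which is 25.0% of the other 12 genes called after DHA and 60.0% of the other 5 called after WY14643. Over all genes 34.2% of those called after DHA and 33.4% of those called after WY14643 were called after both. The Sod1 call after DHA was lost when any of 3 arrays was left out, and its further expressed probesets were not called there.

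**Figure D2:**
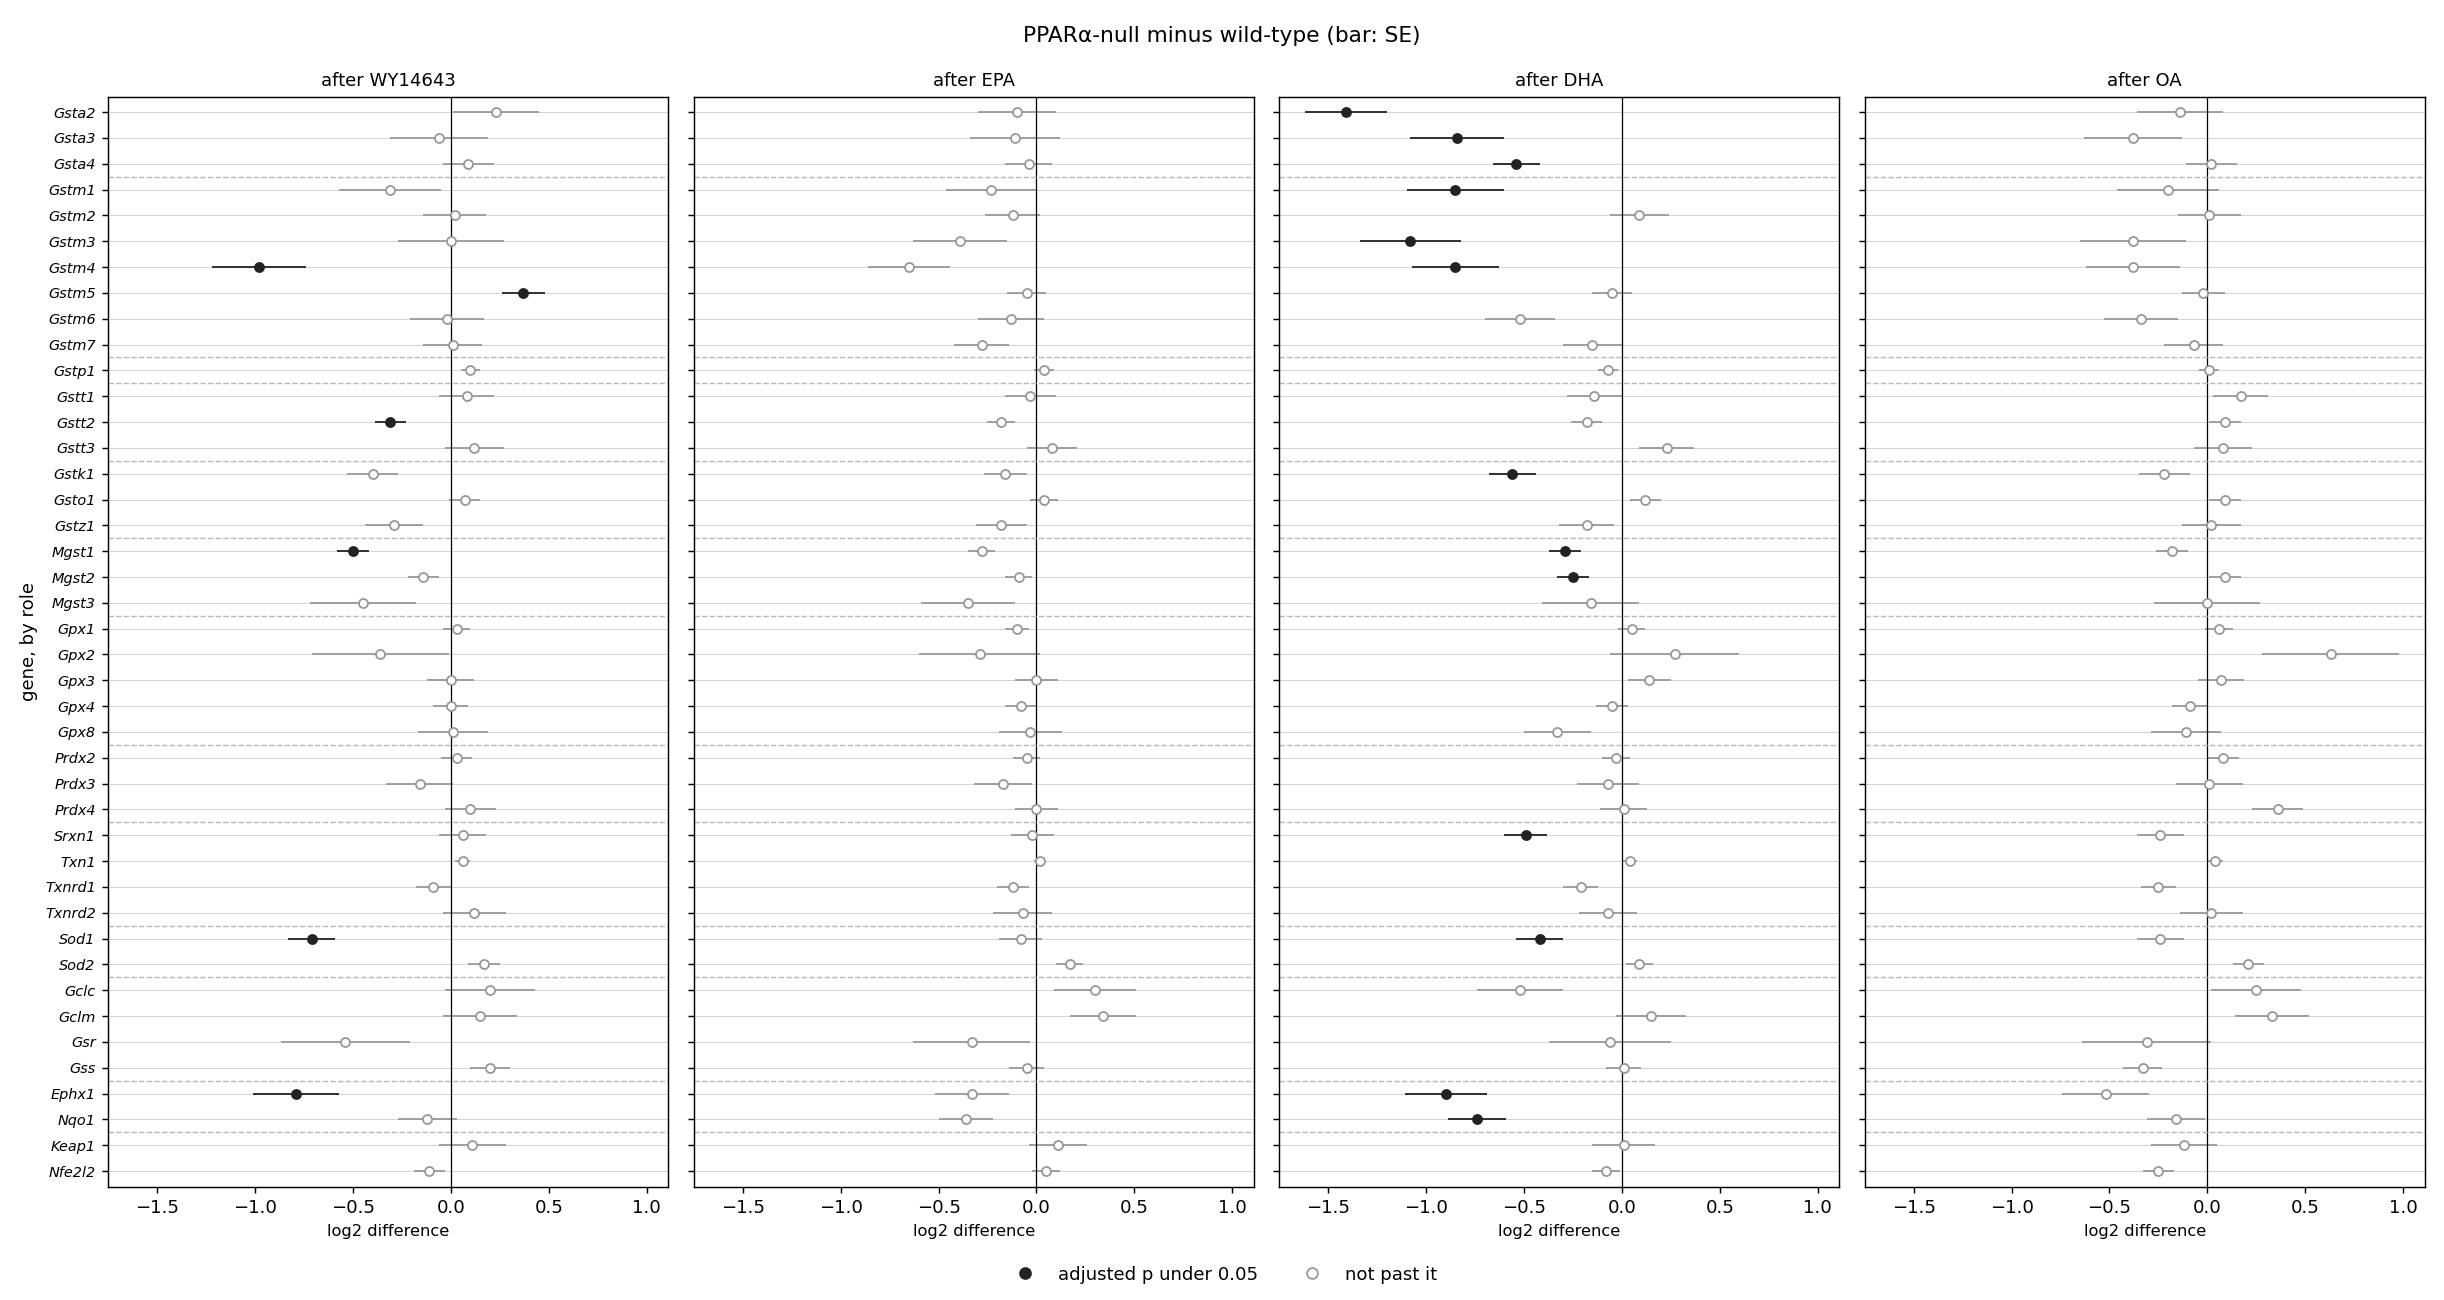
Difference between PPARα-null and wild-type mice (horizontal axis, log2, null minus wild-type) for the 42 expressed genes (vertical axis, by role) after WY14643, EPA, DHA and OA. Bars are SE and filled points passed an adjusted p of 0.05. The 13 filled points after DHA all lie left of 0, and none is filled after EPA or OA.

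The genotype difference itself was compared for DHA with OA, WY14643 with OA, and DHA with WY14643, and no such comparison was made with EPA. With all arrays Gsta2 was the 1 member called in any of them. Under some other settings, given below, the counts were higher. The difference after DHA minus that after WY14643 was −1.64 (SE 0.31, adjusted p = 0.00492), where 0.510% of all genes were called. After WY14643 Gsta2 had 6.78, 6.56, 6.44 and 6.50 in PPARα-null mice, against 6.74, 6.29, 6.42 and 5.92 in wild-type mice, so the genotypes overlapped. Between DHA and OA the genotype difference of Gsta2 differed by −1.27 (SE 0.31), which was not past the threshold with all arrays (adjusted p = 0.402), and no member was called, where 0.0116% of all genes were. With the 3 arrays left out it was −1.50 (SE 0.25, adjusted p = 0.0115), and Gsta2 was then the 1 member called, with 0.0231% of all genes. Between WY14643 and OA no member was called either, against 1.17% of all genes, and none without the 3 arrays, against 1.18%. For the other 12 genes called after DHA, the dependence of the genotype difference on the agonist was not shown with all arrays.

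After EPA no member was called with all arrays, and 0% of all expressed genes were (limma). At an unadjusted p under 0.05 there were 6 of the 42 members and 9.23% of all genes, and the median difference was −0.08 against 0.01 over all genes. The 2 EPA arrays whose Cyp4a10 went against the label stood at the far ends of their groups. PPARα-null EPA replicate 5 was the highest null array for Gsta3, Gstm1, Gstm3, Gstm4, Mgst1, Nqo1 and Ephx1. Wild-type EPA replicate 5 was the lowest wild-type array for the same 7 genes. For Ephx1 the values were 8.39, 8.41, 8.05, 8.04 and 9.16 in null mice given EPA, against 8.89, 8.96, 8.84, 8.81 and 8.22 in wild-type mice given EPA. Without the 3 arrays 5 members were lower in null mice, and 1.75% of all genes were called. They were Mgst1 (−0.40, adjusted p = 0.000229), Gstm4 (−0.92, adjusted p = 0.00637), Gstm3 (−0.86, adjusted p = 0.0183), Nqo1 (−0.53, adjusted p = 0.0461) and Ephx1 (−0.65, adjusted p = 0.0482). Gstm4 was admitted by wild-type values alone, so its test is not independent of the filter on level, and the count of 5 includes it. The groups of all 5 genes then did not overlap, and the share of all called genes of which this was true was not counted without the 3 arrays.

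After OA no member was called with all arrays, against 0.429% of all genes, and 7 of the 42 members had an unadjusted p under 0.05, as did 11.7% of all genes (limma). The median difference was −0.01 over the members and 0 over all genes. Gsta2 averaged 6.00 ± 0.47 in PPARα-null mice given OA and 6.13 ± 0.18 in wild-type mice given OA, with a 95% interval of the difference from −0.59 to 0.32. Without the 3 arrays 2 members were called, with 1.60% of all genes. Nfe2l2 was then lower in null mice (−0.31, adjusted p = 0.0445) and Prdx4, the peroxiredoxin of the endoplasmic reticulum, was higher (0.49, adjusted p = 0.0473). With all arrays, pancreatic acinar transcripts averaged 12.67 to 13.70 on null OA arrays and 10.77 to 12.97 on wild-type OA arrays. The part of acinar RNA in this Prdx4 difference was not tested.

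The fats were compared within each genotype, which asks how far the members answer to the kind of fatty acid in the dose. In PPARα-null mice DHA changed 2 of the 42 genes against OA, Gclc higher and Gpx4 lower, where 1.22% of all expressed genes were called. The median difference was 0.08 over the members and 0.02 over all genes. In wild-type mice DHA changed 12 members against OA, 11 higher and 1 lower, with 4.12% of all genes called, and the medians were 0.17 and 0.01. The higher genes in wild-type mice were the 3 alpha transferases, Gstm1, Gstm3, Gstp1, Mgst2, Srxn1, Gclc, Gclm and Nqo1, and the lower one was Gpx4. The comparisons of DHA, EPA and WY14643 with OA share the OA arrays of their genotype. In wild-type mice the averaged list of crypt and cycling genes ran from 8.63 to 8.77 after OA. It ran from 8.22 to 8.62 after DHA and from 8.28 to 8.53 after EPA, and its part in the members' values was not tested.

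Gclc, the catalytic subunit of glutamate-cysteine ligase, was the most changed member after DHA. In PPARα-null mice it had 10.87, 10.37, 10.36 and 11.73 after DHA, against 9.30, 10.06, 9.74 and 9.94 after OA. The groups did not overlap, and Gclc was 2.10-fold higher (difference 1.07, SE 0.23, adjusted p = 0.0143). This change was not past the threshold without the 3 arrays (0.92, adjusted p = 0.0597), when Gpx4 alone was called there (−0.38, adjusted p = 0.024) with 1.56% of all genes. In wild-type mice it had 11.06, 11.49, 11.68, 11.05 and 11.50 after DHA, against 9.56, 9.47, 9.37 and 9.66 after OA. Every DHA array lay more than 1 log2 unit above every OA array, and the difference was 1.84 (SE 0.22), or 3.58-fold (adjusted p = 1.09e-06). The change in null mice minus that in wild-type mice was −0.77 and was not called (adjusted p = 0.881, and 0.498 without the 3 arrays). The second expressed Gclc probeset gave 0.89 in null mice (adjusted p = 0.0316) and 1.63 in wild-type mice (adjusted p = 2e-06).

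Gclm, the modifier subunit, averaged 9.11 ± 0.45 after DHA and 8.66 ± 0.29 after OA in PPARα-null mice (adjusted p = 0.3). In wild-type mice it was 1.55-fold higher after DHA (8.96 ± 0.26, and 8.32 ± 0.28 after OA, adjusted p = 0.0362), and leaving out any of 6 arrays ended that call. In wild-type mice both subunits of the ligase were therefore called on the probeset read, while the other enzymes of synthesis and recycling were not. The further expressed Gclm probeset was not called there (0.46, adjusted p = 0.145), and its groups overlapped. Gss there averaged 8.96 ± 0.13 after DHA and 9.26 ± 0.10 after OA (adjusted p = 0.0726), and Gsr averaged 8.65 ± 0.60 after DHA and 8.28 ± 0.60 after OA (adjusted p = 0.71).

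Gsta2 in PPARα-null mice had 5.31, 6.23, 6.14 and 6.31 after OA, which overlapped its values after DHA given above, and the difference of 0.35 was not called (adjusted p = 0.546). Wild-type mice had Gsta2 values of 6.20, 6.35, 5.94 and 6.05 after OA, all more than 0.5 log2 units below the lowest DHA array. The difference there was 1.63 (SE 0.21), or 3.09-fold higher after DHA (adjusted p = 4.81e-06). Nqo1 in null mice had 7.12, 7.12, 6.95 and 6.84 after DHA, against 6.92, 6.76, 6.63 and 6.72 after OA (difference 0.25, adjusted p = 0.54). Wild-type mice had 8.0, 7.80, 7.70, 7.28 and 7.98 after DHA, against 6.97, 6.85, 6.73 and 7.13 after OA (difference 0.83, SE 0.15, adjusted p = 0.000391). All wild-type DHA arrays were above all wild-type OA arrays. A call in wild-type and none in null mice does not show that the genotypes differ, and for Nqo1 the test of that difference gave −0.58 (SE 0.21, adjusted p = 0.788).

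The other higher members after DHA in wild-type mice were Gsta3 (2.06-fold, adjusted p = 0.00854), Gstm1 (2.02-fold, adjusted p = 0.0138), Gstm3 (2.00-fold, adjusted p = 0.0198), Gsta4 (1.55-fold, adjusted p = 0.0014), Mgst2 (1.48-fold, adjusted p = 1.05e-05), Srxn1 (1.4-fold, adjusted p = 0.0102) and Gstp1 (1.16-fold, adjusted p = 0.00537). Of these, the Gstm1 groups overlapped, while 88.2% of all called genes had groups that did not. Gpx4, the peroxidase that reduces lipid hydroperoxides in membranes, ran the other way under both fats. In PPARα-null mice it had 11.83, 11.80, 11.94 and 11.77 after DHA, against 12.05, 12.18, 12.25 and 12.21 after OA (difference −0.34, adjusted p = 0.0433). Wild-type mice had 11.83, 12.03, 11.87, 11.99 and 11.68 after DHA, against 12.40, 12.06, 12.26 and 12.34 after OA (difference −0.38, adjusted p = 0.00363). The groups did not overlap in either genotype, and in null mice the call was lost when any of 14 arrays was left out. Gpx4 and Gclc were the 2 members called in both genotypes.

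EPA was set against OA in the same way. In PPARα-null mice 2 members were called, Srxn1 (0.43, adjusted p = 0.0358) and Gpx4 (−0.33, adjusted p = 0.0211), where 2.67% of all genes were called. The count was 0 without PPARα-null OA replicate 3 or 4 or PPARα-null EPA replicate 1 or 4, and 1 without PPARα-null EPA replicate 3. With the 3 arrays left out it was again 2, with 2.87% of all genes, but the genes were Txn1 (0.14, adjusted p = 0.0297) and Gpx4 (−0.38, adjusted p = 0.0141). Gclc had 10.85, 9.61, 10.80, 10.68 and 10.76 after EPA, against 9.30, 10.06, 9.74 and 9.94 after OA in null mice. Of the EPA arrays 4 stood above every OA array and replicate 2 among them, and the difference of 0.78 was not called (adjusted p = 0.0558). Without PPARα-null EPA replicate 2 it was (adjusted p = 0.00267), and without the 3 arrays it was 0.57 and not called (adjusted p = 0.292).

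In wild-type mice EPA changed 3 members against OA, 2 higher and 1 lower, where 6.87% of all genes were called. They were Gclc (0.73, adjusted p = 0.0434), Gpx1, the cytosolic glutathione peroxidase (0.25, adjusted p = 0.021), and Gpx4 (−0.34, adjusted p = 0.0072). The count was 1 without wild-type OA replicate 1, wild-type OA replicate 3 or wild-type EPA replicate 3. Without the 3 arrays 4 members were called, with 5.79% of all genes: Gsta2 (0.73, adjusted p = 0.0101), Nqo1 (0.58, adjusted p = 0.0108), Mgst2 (0.28, adjusted p = 0.03) and Gpx4 (−0.30, adjusted p = 0.03). The calls of Gclc (0.71, adjusted p = 0.0709) and Gpx1 (0.23, adjusted p = 0.0629) were then lost.

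**Figure D3:**
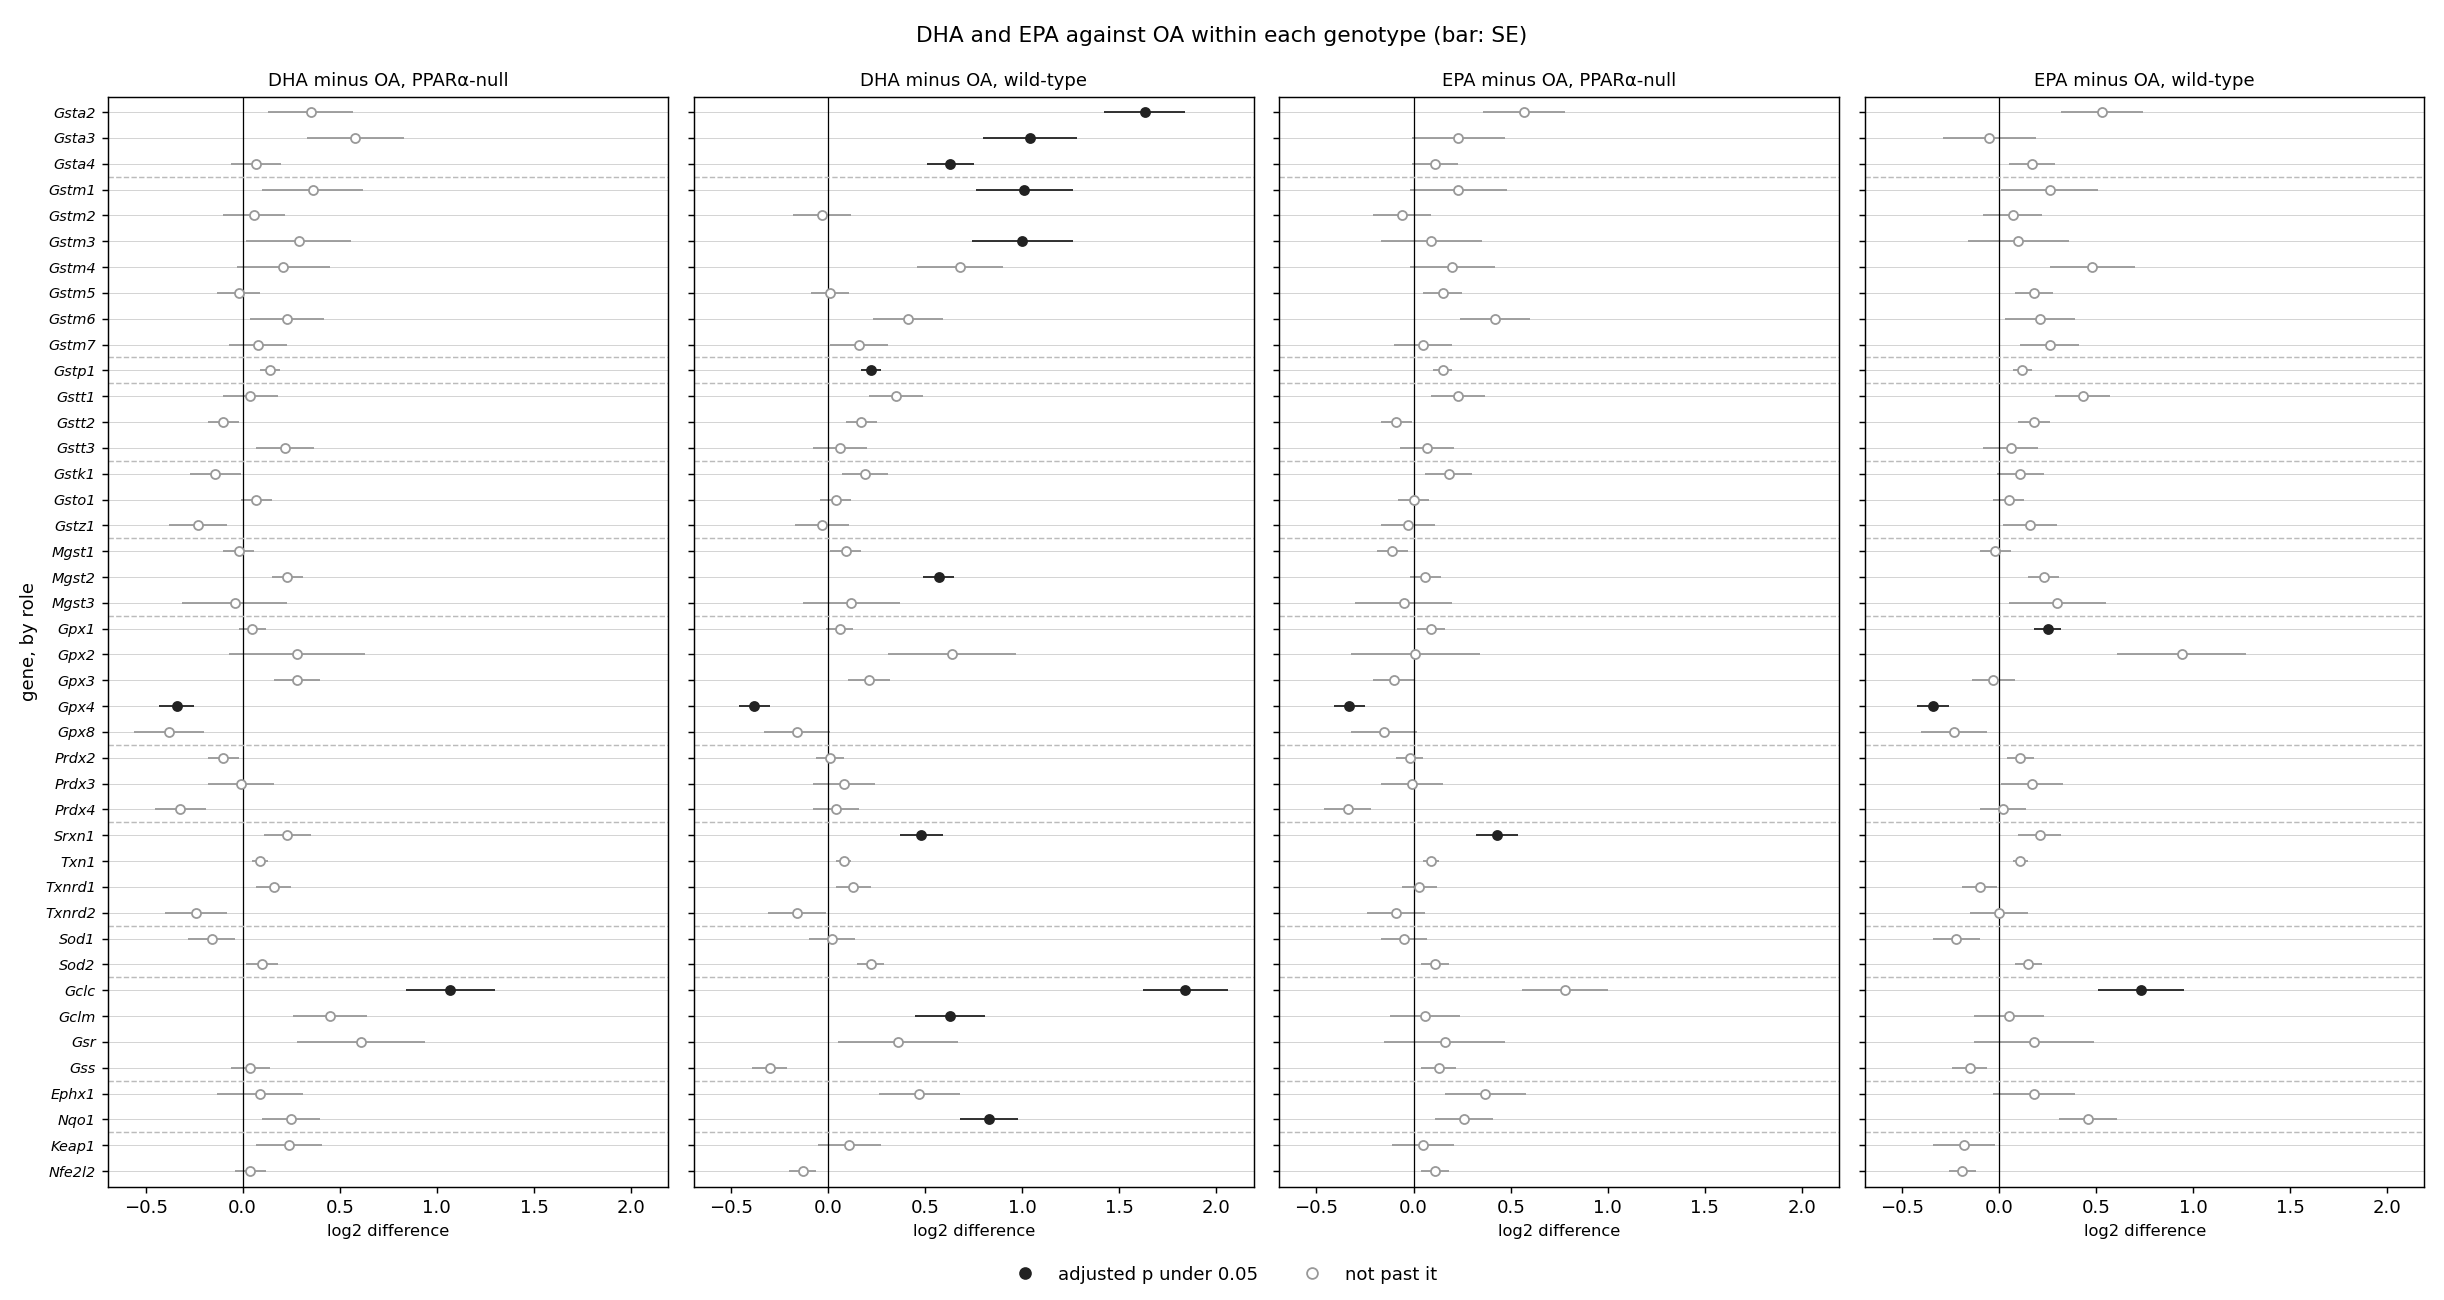
Difference of DHA and of EPA from OA (horizontal axis, log2) for the 42 expressed genes (vertical axis, by role), in PPARα-null and wild-type mice. Bars are SE and filled points passed an adjusted p of 0.05. Gclc is at 1.07 in null and 1.84 in wild-type mice after DHA, and Gpx4 is filled left of 0 in all 4 panels.

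EPA and DHA are both long-chain omega-3 fatty acids and were given in the same volume at the same time, so they can be set against each other directly. DHA is longer by a pair of carbons and has 1 double bond more. In wild-type mice 4 of the 42 members were lower after EPA than after DHA and none was higher, where 0.649% of all genes were called. They were Gclc (−1.11, SE 0.21, adjusted p = 0.00602), Gsta2 (−1.10, SE 0.20, adjusted p = 0.00424), Gsta3 (−1.09, SE 0.23, adjusted p = 0.0175) and Mgst2 (−0.34, SE 0.07, adjusted p = 0.0208). For Gclc the arrays were 10.47, 9.90, 10.26, 10.29 and 10.29 after EPA, against 11.06, 11.49, 11.68, 11.05 and 11.50 after DHA. For Gsta2 they were 6.46, 7.19, 6.97, 6.82 and 5.87 after EPA, against 7.89, 7.70, 7.99, 7.23 and 8.0 after DHA. The EPA and DHA groups of all 4 genes did not overlap, though for Gsta2 the margin was narrow. Of all called genes 92.9% had groups that did not overlap.

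Other members that DHA changed against OA were not called between EPA and DHA, though some unadjusted 95% intervals lay below 0. The interval of EPA minus DHA in wild-type mice was −0.92 to −0.24 for Gclm, −0.66 to −0.09 for Nqo1 and −0.49 to −0.05 for Srxn1 (adjusted p = 0.0981, 0.225 and 0.261). A p that misses the threshold does not show that the fats act alike. Without the 3 arrays 3 genes stayed lower, Gclc (−1.13, adjusted p = 0.0114), Gsta2 (−0.90, adjusted p = 0.00633) and Gsta3 (−0.97, adjusted p = 0.0434), with 0.393% of all genes called. The count was 2 without wild-type EPA replicate 5 and 7 without wild-type DHA replicate 4. In PPARα-null mice no member was called between EPA and DHA (limma), against 0.742% of all genes and 0.578% without the 3 arrays, and 4 of the 42 members had an unadjusted p under 0.05, as did 9.46% of all genes. The interval there was −0.74 to 0.16 for Gclc and −0.21 to 0.65 for Gsta2.

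Against OA, WY14643 changed 11 members in PPARα-null mice, 9 higher and 2 lower, where 27.2% of all expressed genes were called. The median was 0.11 over the members and 0.04 over all genes. In wild-type mice 16 members were called, 13 higher and 3 lower, where 30.0% of all genes were, and the medians were 0.17 and −0.01. The higher members in wild-type mice were Gclm, Gstm4, Ephx1, all 3 theta transferases, Sod1 and Sod2, Gstz1, Gstk1, Mgst1, Mgst2 and Gstp1. The lower ones were Srxn1, Gss and Txnrd1, and none of the 3 alpha transferases was called. The drug and its vehicle differ from the fat in kind and amount, so these differences cannot be told apart from the effect of the fat load.

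Gclm was among the most changed. In PPARα-null mice it had 9.30, 9.76, 9.49 and 9.79 after WY14643, against 9.04, 8.36, 8.54 and 8.69 after OA, which is 1.91-fold higher (difference 0.93, SE 0.19, adjusted p = 0.00056). In wild-type mice it had 9.38, 9.56, 9.53 and 9.26 after WY14643, against 8.20, 8.55, 7.99 and 8.55 after OA, which is 2.16-fold higher (difference 1.11, SE 0.19, adjusted p = 4.78e-05). The groups did not overlap in either genotype. Its partner Gclc was not called after WY14643 in null mice (10.07 ± 0.18, and 9.76 ± 0.33 after OA, adjusted p = 0.35) or in wild-type mice (9.87 ± 0.23, and 9.51 ± 0.12 after OA, adjusted p = 0.278). Ephx1 was 1.69-fold higher in null mice (adjusted p = 0.0106), and that call was lost without PPARα-null WY14643 replicate 2. Wild-type mice had 9.97, 9.67, 9.43 and 9.29 after WY14643, against 8.70, 8.39, 8.27 and 8.88 after OA (2.05-fold, adjusted p = 0.000611).

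The theta transferases, which act on small halogenated compounds, had 2 of 3 genes higher after WY14643 in PPARα-null mice and 3 of 3 in wild-type mice, where 27.2% and 30.0% of all genes were called. Gstt1 had 10.20, 10.29, 10.12 and 10.05 in null mice after WY14643, against 9.76, 9.21, 9.83 and 9.69 after OA (1.46-fold, adjusted p = 0.00556). Wild-type mice had 10.34, 10.05, 9.92 and 10.04 after WY14643, against 9.53, 9.48, 9.28 and 9.51 after OA (1.56-fold, adjusted p = 0.00109). The groups did not overlap. Gstt3 was higher by 1.56-fold in null mice (adjusted p = 0.0023) and by 1.51-fold in wild-type mice (adjusted p = 0.00322). Gstt2 in wild-type mice was 1.41-fold higher (adjusted p = 5.06e-05). The members called in both genotypes were Gstp1, Gstt1, Gstt3, Sod2, Gclm and Ephx1. Sod2, the mitochondrial dismutase, differed by 0.22 in null and 0.26 in wild-type mice, and was named after its values were seen. Its call in null mice was lost when any of 4 arrays was left out and under 2 of 8 other settings. The further expressed Sod2 probesets were not called in null mice (0.13 and −0.22, adjusted p = 0.231 and 0.304).

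Gstm4 in wild-type mice had 5.97, 5.38, 5.49 and 5.15 after WY14643, against 4.15, 4.64, 4.48 and 4.50 after OA, where it lay under the level counted as expressed, so no fold is given, and the count in wild-type mice without it is 15. Gss had 8.69, 8.88, 8.78 and 8.75 after WY14643, against 9.25, 9.23, 9.15 and 9.40 after OA (difference −0.49, adjusted p = 0.000389), and Srxn1 averaged 9.92 ± 0.17 after WY14643 and 10.44 ± 0.11 after OA (difference −0.51, adjusted p = 0.00163). Both stood lower on every WY14643 array. Txnrd1 (cytosolic thioredoxin reductase) differed by −0.40 (adjusted p = 0.00197). In PPARα-null mice Gss averaged 8.97 ± 0.15 after WY14643 and 8.93 ± 0.04 after OA (adjusted p = 0.787).

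The members called in PPARα-null mice alone were not tested for being particular to that genotype. They were Gsta3 (0.76, adjusted p = 0.0268), Gstm6 (0.62), Gstm7 (0.47), Gpx2, the gastrointestinal glutathione peroxidase (−1.09, adjusted p = 0.0212), and Prdx4 (−0.37, adjusted p = 0.0298), of which all but Gsta3 were named after their values were seen. Without the 3 arrays 11 members were again called in null mice, with 26.6% of all genes, while Gsta3 (0.59, adjusted p = 0.0837) and Gpx2 (−0.79, adjusted p = 0.106) were lost. The count was 7 without PPARα-null OA replicate 2 or PPARα-null WY14643 replicate 1 or 2. The 5 pancreatic acinar markers were all lower in null mice after WY14643 than after OA, with a median difference of −4.32, and the list ran from 7.47 to 10.47 on the WY14643 arrays and from 12.67 to 13.70 on the OA arrays. The part of acinar RNA in the values of Prdx4 and Gpx2 was not tested.

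Markers of the epithelium also moved with this comparison. The averaged enterocyte list ran from 12.74 to 12.89 in PPARα-null mice after WY14643 and from 12.39 to 12.63 after OA. In wild-type mice it ran from 12.74 to 12.86 after WY14643 and from 12.47 to 12.63 after OA. The list of crypt and cycling genes had 3 of 4 members lower after WY14643 in wild-type mice, where 30.0% of all genes were called. It ran from 8.24 to 8.42 there, against 8.63 to 8.77 after OA. After DHA (8.22 to 8.62) and EPA (8.28 to 8.53) the list was also below OA in wild-type mice. In PPARα-null mice its ranges after WY14643 (8.35 to 8.53) and OA (8.36 to 8.56) overlapped. The part of these markers in the members' values was not tested in any comparison with OA.

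**Figure D4:**
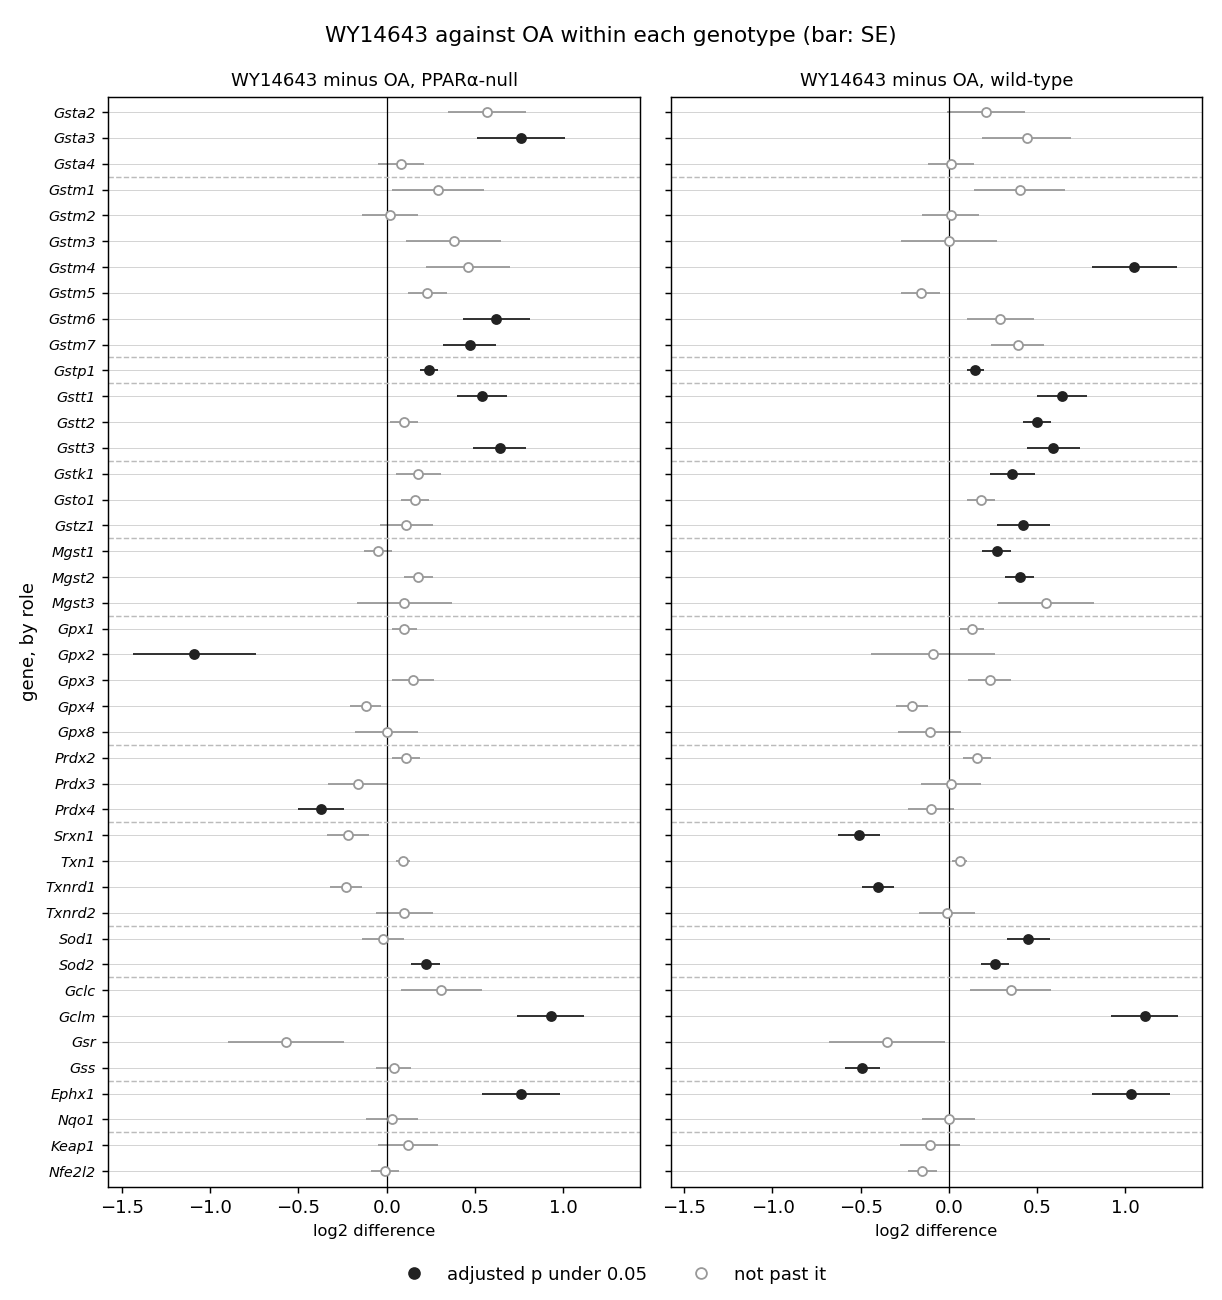
Difference of WY14643 from OA (horizontal axis, log2) for the 42 expressed genes (vertical axis, by role) in PPARα-null and wild-type mice. Bars are SE and filled points passed an adjusted p of 0.05. Gclm is filled at 0.93 in null and 1.11 in wild-type mice, and the theta genes Gstt1 and Gstt3 are filled in both.

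The regulators themselves were not called in any comparison with all arrays. Nfe2l2 had group means of 11.30 to 11.56 and Keap1 of 6.69 to 6.99 over the 8 groups. A further Nfe2l2 probeset was 0.71 higher after WY14643 than after OA in PPARα-null mice (adjusted p = 0.00878), which the probeset read here did not show (−0.01). Gsr was not called on the probeset read either. A further Gsr probeset was lower after WY14643 than after OA in PPARα-null mice (−0.65, adjusted p = 0.0239), where the one read gave −0.57 (adjusted p = 0.208).

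Genes outside the members that are linked to NRF2 or supply NADPH were read from a list of 18, of which 12 were tested. Between PPARα-null and wild-type mice given DHA 1 of the 12 was lower, Me1, the cytosolic malic enzyme (−1.99, adjusted p = 0.00295). Me1 was also lower in null mice after WY14643 (−2.95, adjusted p = 7.36e-06). In wild-type mice 2 of the 12 were higher after DHA than after OA: Ugdh, which makes UDP-glucuronate (0.66, adjusted p = 5.75e-05), and Osgin1, an oxidative stress-induced growth inhibitor (0.60, adjusted p = 0.0211). Ugdh was lower after EPA than after DHA (−0.39, adjusted p = 0.0489), a call that was lost without the 3 arrays (adjusted p = 0.07). The share of all genes called was 6.54% between genotypes after DHA and 4.12% for DHA against OA in wild-type mice.

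Of 14 genes of glutathione turnover 12 were tested. In PPARα-null mice given DHA Glo1 (glyoxalase, which uses glutathione to detoxify methylglyoxal) was lower than in wild-type mice (−0.64, adjusted p = 0.00385), and Anpep, a brush border aminopeptidase, was higher (0.44, adjusted p = 0.0215). Ggct, which breaks down gamma-glutamyl dipeptides, differed from OA in wild-type mice by −0.76 after DHA (adjusted p = 0.0197) and by −1.54 after WY14643 (adjusted p = 2.07e-06). Cat, the peroxisomal catalase, was 0.83 higher after WY14643 than after OA in wild-type mice (adjusted p = 0.000363). The share of all genes called against OA in wild-type mice was 4.12% for DHA and 30.0% for WY14643, and 6.54% were called between genotypes after DHA. As a check of the labels, 8 of 10 known PPARα targets were tested: 8 were lower in null mice after WY14643 and 7 after DHA, and none was called after EPA or OA with all arrays. The 3 doubted arrays are all in the EPA and OA groups. Without them Acaa1b ran from 7.76 to 8.32 in null and 10.25 to 10.82 in wild-type mice after EPA. After OA it ran from 8.17 to 9.46 in null and 11.02 to 11.92 in wild-type mice. A test of the targets without these arrays is not given.

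Several members have more than 1 probeset, up to 5, while 26 of the 50 genes have a single one. In 27 called comparisons a gene had a further expressed probeset, and in 19 of them at least 1 such probeset was also called. A further probeset pointed the other way in 4 comparisons, 2 of Sod1 and 2 of Sod2, and was not called there. For Sod1 another probeset gave −0.69 between the genotypes after WY14643 (adjusted p = 0.00204) and 0.57 for WY14643 against OA in wild-type mice (adjusted p = 0.00402), in the direction of the one read. For Sod2 another gave 0.23 in the second of these comparisons (adjusted p = 0.0284). That probeset gave 0.13 for WY14643 against OA in PPARα-null mice and was not called (adjusted p = 0.231). Between the genotypes after DHA, where Sod1 was called, its further probesets gave −0.28 and −0.1 and were not called (adjusted p = 0.252 and 0.796).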

How the data were processed

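Gene expression was measured on Affymetrix 430 2.0 arrays, and the authors deposited log2 values made with GCRMA (per the submitters' processing notes, version not given), a method that corrects for probe sequence and compresses values near background. All 35 arrays were used as deposited, under their labels, and 0 columns of values were left out. Of 45101 probesets 64 controls were removed, 932 with several gene symbols and 9160 with none were not read as genes, and all 50 member symbols matched the RefSeq table. A linear model of 8 group means was fitted to 45037 probesets with limma 3.58.1 in R 4.3.3, with an empirical Bayes trend on intensity. P-values were adjusted by the Benjamini-Hochberg method over the 15384 expressed probesets (a group mean above log2 5), and each gene was read on its expressed single-symbol probeset of highest mean. Genes were called at an adjusted p under 0.05. The script was tested on simulated data. The number of mice limits the precision, and arrays have no read depth.

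Named with values were the members called between genotypes or between fats, the genes of glutathione synthesis, Nfe2l2, Keap1, Nqo1, Txnrd1 and Srxn1. Values by array were set to be given for the 5 called genes of largest difference in each of the 2 comparisons with most calls and the 3 of highest level, and those of other genes were added after the values were seen. The members, the lists and the 3 doubted arrays were chosen with earlier results of these data known. Replicate numbers were checked for pairing: every same-numbered pair correlated above 0.1 for EPA and DHA in PPARα-null mice (0.12 to 0.40 over 4 pairs), and pairs of the 2 genotypes after WY14643 correlated at 0.09 to 0.55. Blocking on the number left 0 and 6 calls there, as without it. Alternatives were no filter on level, a filter on the mean, no intensity trend, quantile normalization, adding 32 to the linear value, fitting only the groups compared, a replicate block, an unadjusted p under 0.01 as in the methods, leaving out each array, and leaving out the 3 doubted arrays. Promoter sequences are RefSeq's (GRCm38.p6). Untreated mice were not analysed here.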

Additional observations from a re-analysis of the deposited data

Results flagged for a closer look

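Among 120 groups of 4 or 5 arrays of the genes shown by array, 5 held an array far from the rest, and chance gives about 1 in 20. Gclc stood at 9.61 on PPARα-null EPA replicate 2, against 10.68 to 10.85 on the other 4, and without that array its difference from OA in null mice had an adjusted p of 0.00267. Gsta2 stood at 5.31 on PPARα-null OA replicate 1, against 6.14 to 6.31 on the others. Txn1 stood at 13.42 on the same array, against 13.27 to 13.29. Ephx1 stood at 8.22 on wild-type EPA replicate 5, against 8.81 to 8.96. Both of these arrays carried Cyp4a10, Acaa1b and Slc25a20 values that went against their label, and the part of a wrong label was not tested. Gstp1 stood at 13.02 on wild-type EPA replicate 4, against 13.15 to 13.20.

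The difference of Gsta2 between PPARα-null and wild-type mice after DHA minus that after WY14643 was −1.64 on the log2 scale (SE 0.31, adjusted p = 0.00492 by limma), and it held with each array left out in turn, at −1.77 to −1.50.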

How the results depend on the processing

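Leaving out 1 array at a time gave counts of called members of 2 to 7 between genotypes after WY14643, 0 to 1 after EPA, 8 to 13 after DHA and 0 to 0 after OA. For WY14643, EPA and DHA against OA the counts were 7 to 12, 0 to 3 and 0 to 2 in PPARα-null mice and 13 to 17, 1 to 4 and 9 to 13 in wild-type mice. For EPA against DHA they were 0 to 1 in PPARα-null and 2 to 7 in wild-type mice. For the change of the genotype difference they were 0 to 1 (DHA and OA), 0 to 1 (WY14643 and OA) and 1 to 1 (DHA and WY14643). Counts not otherwise named stayed within 1.5 times.

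Without the 3 doubted arrays the counts were 5 between genotypes after EPA (Gstm4 among them), 2 after OA and 1 for DHA against OA in PPARα-null mice. They were 1 for the change of the genotype difference between DHA and OA, and 2 for that between DHA and WY14643. Fitting only the groups compared gave 7 between genotypes after DHA, 1 and 0 for EPA and DHA against OA in PPARα-null mice, 1 for the change between WY14643 and OA, and 2 for that between DHA and WY14643. With no filter on level there were 1 for EPA against OA in wild-type mice and 6, 0 and 1 for WY14643, EPA and DHA against OA in PPARα-null mice. Quantile normalization and the fit with no intensity trend each gave 1 for DHA against OA in PPARα-null mice, and the fit with no trend and the values plus 32 each gave 1 for the change between WY14643 and OA. The replicate block gave 1 for EPA against OA in PPARα-null mice and 1 for the change between WY14643 and OA, and moved no other count by over 1.5 times. At an unadjusted p under 0.01 there were 2 between genotypes after EPA, 3 after OA, 8 for EPA against OA and 9 for EPA against DHA in wild-type mice, 5 and 1 for the same in PPARα-null mice, and 4, 3 and 6 for the changes between DHA and OA, WY14643 and OA, and DHA and WY14643. The cause of these moves was not tested, beyond fewer samples or other p-value rules.

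Of 3007 re-tests of the 70 called single comparisons, 2800 stayed past the threshold, 207 did not, and 0 reversed. Values near background, such as those of Gstm4, limit what these arrays can show.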

Other observations

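A probeset shared by Gsta1, Gsta2 and a predicted gene, left out of the counts above because it has several symbols, was lower in PPARα-null than in wild-type mice given DHA, with a log2 difference of −0.38 (adjusted p = 0.00186, limma). In wild-type mice it was 0.27 higher after DHA than after OA (adjusted p = 0.0235). It was not called for EPA against DHA in wild-type mice (−0.22, adjusted p = 0.128) or for the genotype difference after DHA minus that after WY14643 (−0.15, adjusted p = 0.765), where the Gsta2 probeset was. Of 5 probesets shared by Prdx1 and a predicted gene, 1 was called between PPARα-null and wild-type mice given WY14643 (−0.16, adjusted p = 0.0266), and the other 4 were not, at −0.13 to −0.09 (adjusted p = 0.17 to 0.691).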
